A study of Homo sapiens with 8 samples.

Results

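The 35 genes described here are neuronal and synaptic genes measured in HCT116, an established human colorectal carcinoma cell line of epithelial origin. They comprise 9 genes of the synaptic vesicle and its release machinery, 1 postsynaptic scaffold, 10 genes of microtubules, growth cones and axonal transport, 3 intermediate filament genes, 5 genes of neuroendocrine granules and neuronal enzymes, 3 neural surface proteins, an RNA-binding protein, a pair of BEX adaptors and the repressor REST. Each gene was found through the array platform's annotation: a probe set counted when it carried exactly 1 gene symbol and that symbol was the gene's. Among 19775 genes found in that way, these 35 had 76 probe sets. Where a gene had several, the one that averaged highest across all arrays stood for it.

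Cells were exposed for 10 h to largazole at 20 nM, to SAHA at 2 µM, to FK228 at 20 nM or to vehicle, and RNA of each group was hybridised to 2 Affymetrix arrays, 8 in all. All groups were the same cell line, with no genetic change named in the labels. All 3 compounds inhibit histone deacetylases: largazole is a cyclic depsipeptide with a thioester, FK228 (romidepsin) a bicyclic depsipeptide with a disulfide, and SAHA (vorinostat) a hydroxamic acid. The labels call the 2 arrays of a group duplicates and do not say whether they came from separate cultures, so a p-value here reflects no more than the spread of these arrays, which may be technical.

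Most of these genes are active in neurons and neuroendocrine cells, where vesicle proteins such as synaptotagmins and SNARE proteins drive transmitter release and where stathmins, MAP2 and tau act on microtubules. Outside the nervous system many of them are kept silent by REST, a zinc finger repressor that binds the RE1 element and recruits corepressor complexes that contain histone deacetylases. Histone deacetylase inhibitors block the zinc-dependent enzymes of such complexes and raise histone acetylation.

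Promoter sequences are shown for 4 of the genes, because REST's RE1 element and the cAMP response element (CRE) have been described in promoters of neuronal genes. They are taken from RefSeq on GRCh38.p14, each running 5′ to 3′ on the gene's own strand from 250 bases before to 50 bases after an annotated start, and cover 300 bases. The windows are VGF at chr7:101165520-101165819 (minus strand), SYN1 at chrX:47619808-47620107 (minus strand), KIF5C at chr2:148874977-148875276 (plus strand) and SYT11 at chr1:155859317-155859616 (plus strand). Capitals mark a match to the RE1 core or to the CRE. VGF and SYN1 hold both, KIF5C holds a CRE, and SYT11, the gene with the largest difference from vehicle among the 35, holds neither.
VGF: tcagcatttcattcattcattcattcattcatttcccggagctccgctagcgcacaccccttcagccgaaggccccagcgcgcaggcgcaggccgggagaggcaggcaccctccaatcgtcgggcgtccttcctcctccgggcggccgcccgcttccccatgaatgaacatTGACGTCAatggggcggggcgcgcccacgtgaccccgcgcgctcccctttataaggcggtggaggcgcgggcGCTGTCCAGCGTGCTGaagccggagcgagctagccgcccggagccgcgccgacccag
SYN1: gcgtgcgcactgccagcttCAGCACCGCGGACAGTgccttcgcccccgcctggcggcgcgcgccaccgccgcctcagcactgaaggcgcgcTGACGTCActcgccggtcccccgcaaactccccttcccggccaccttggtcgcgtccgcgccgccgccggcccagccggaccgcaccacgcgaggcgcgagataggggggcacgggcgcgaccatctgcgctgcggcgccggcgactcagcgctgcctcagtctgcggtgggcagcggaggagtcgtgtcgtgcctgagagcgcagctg
KIF5C: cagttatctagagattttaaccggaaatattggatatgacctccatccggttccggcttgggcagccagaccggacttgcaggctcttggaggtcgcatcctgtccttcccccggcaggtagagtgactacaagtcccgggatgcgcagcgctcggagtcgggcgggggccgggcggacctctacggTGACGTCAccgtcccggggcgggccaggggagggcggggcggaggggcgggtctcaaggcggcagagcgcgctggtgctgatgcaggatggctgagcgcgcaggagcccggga
SYT11: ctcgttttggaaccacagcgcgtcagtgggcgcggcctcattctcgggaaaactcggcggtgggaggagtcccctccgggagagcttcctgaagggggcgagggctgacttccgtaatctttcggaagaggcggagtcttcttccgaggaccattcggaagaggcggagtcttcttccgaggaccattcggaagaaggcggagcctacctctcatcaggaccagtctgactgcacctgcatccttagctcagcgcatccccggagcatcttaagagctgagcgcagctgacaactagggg

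The RE1 core was searched on both strands as CAGCACC followed by GGACAGC with 2 bases between them, allowing 1 mismatch over the 14 letters. The CRE was searched as TGACGTCA without a mismatch, and neither motif overlapped the other in the windows shown. Of the 35 genes, 26 were matched by symbol to the promoter table, with 48 windows. SNAP25, CPLX1, STMN2, MAPT, DPYSL2, NEFL, NEFM, CHGB and NCAM1 were not listed. The RE1 core was found in 2 of the 48 windows (4.17%) and in 41 of the 35116 windows of all genes (0.117%). In VGF the match lay across the annotated start, from -7 to 8, and read on the opposite strand, and in SYN1 it lay from -231 to -216. The CRE was found in 6 windows (12.5%), those of VGF, SYN1, KIF5C, CHGA, KIF1A and DLG4, and in 649 windows of all genes (1.85%). A GC box, searched as GGGCGG on both strands, was in 54.2% of the genes' windows and in 45% of all windows. The genes with a match did not share one response. In the probe sets that stood for them, VGF and KIF5C passed the test as higher with every compound, whereas SYN1, CHGA, KIF1A and DLG4 passed it with none. The other SYN1 probe set passed as higher with largazole and FK228, and CHGA was near background (defined below) on every array. A match describes letters in this window and is not evidence of binding.

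**Figure D1:**
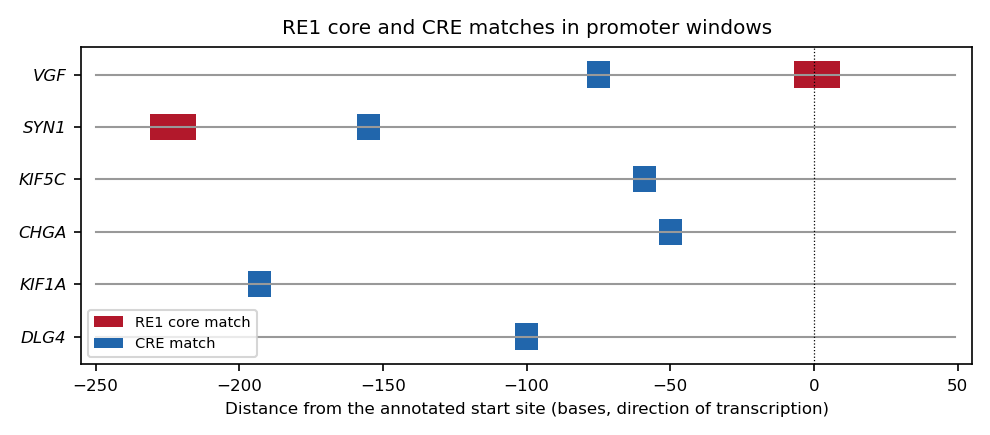
Position of each RE1 core match (red) and CRE match (blue) in the promoter windows of the 6 genes that hold one, in bases from the annotated start site in the direction of transcription. The RE1 core matches lie at -7 to 8 in VGF and at -231 to -216 in SYN1, and the CRE matches begin between -197 in KIF1A and -54 in CHGA.

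Levels are the deposited log2 values of a probe set. The table has no detection calls, so a mean under 4.49, the median of all values, was called near background. Probe sets differ in how brightly they hybridise, so levels are compared between groups and never between genes. In all 4 groups 23 of the genes lay above that mark and 7 lay below it (GAP43, NEFL, NEFM, CHGA, CHGB, UCHL1 and ELAVL4). A further 4, SYT11, NCAM1, STMN2 and BEX1, were near background with vehicle and above the mark with at least 1 compound. INA lay above it with vehicle and just below it with largazole and FK228.

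**Figure D2:**
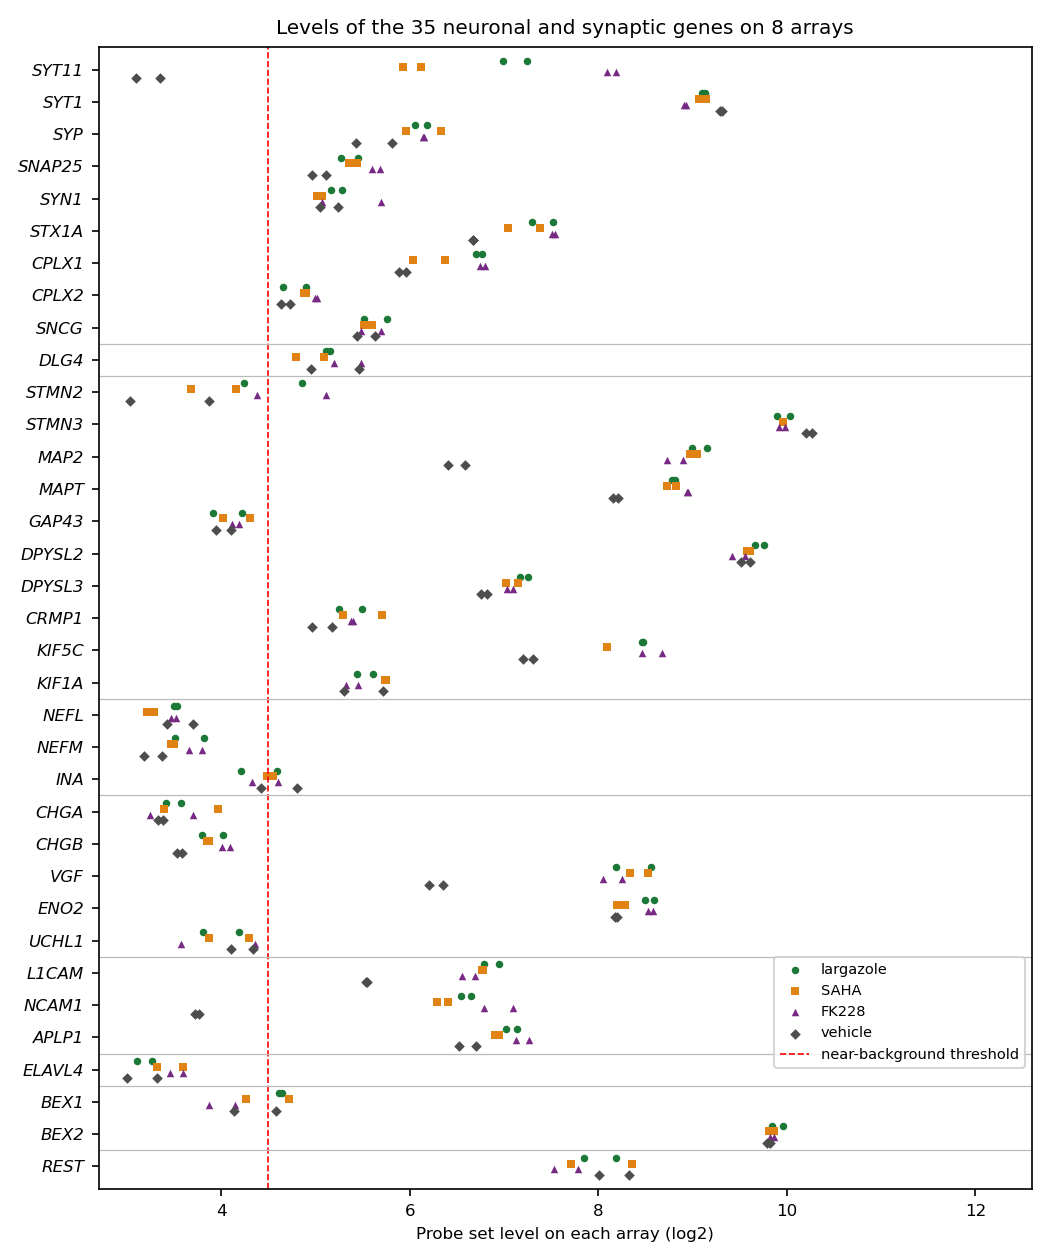
Log2 level of each of the 35 genes on the 8 arrays, with 1 symbol per array and groups offset from top to bottom as largazole, SAHA, FK228 and vehicle. The dashed line is the near-background mark of 4.49. Levels may be compared along a row and not between rows. The SYT11 and NCAM1 vehicle arrays lie left of the mark and all 6 of their treated arrays lie right of it.

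Array medians lay between 4.47 and 4.51. Pearson's r over the chosen probe sets of the 19775 genes, which are not independent replicates, within a group was 0.997 to 0.998. Between a compound's array and a vehicle array it was 0.972 to 0.982. Of 14 colorectal epithelial markers fixed for the check, 13 lay above the near-background mark with largazole and SAHA, and 12 with FK228 and vehicle. LGALS4 was near background in all groups and VIL1 was close to the mark. The epithelial markers' summed log2 level was 120.9 to 121.9 on the largazole arrays, 121.29 to 121.33 on the SAHA arrays, 118.4 to 118.8 on the FK228 arrays and 123.8 to 124.1 on the vehicle arrays. Of the 14, 2 were called higher and 4 lower with largazole, 3 higher and 5 lower with SAHA, and 2 higher and 4 lower with FK228. Of all genes with a mean at or above the mark, 18.4% were higher and 19.2% lower with largazole. The shares were 19.1% and 21.5% with SAHA, and 22.4% and 24.1% with FK228, so 14 markers do not set the epithelial genes apart. CDH1 was called higher, and CLDN4, ESRP1 and GRHL2 lower, with each compound. Of 6 glial markers 3 (GFAP, MBP and SLC1A3) lay above the mark in every group, and MOG, OLIG2 and AQP4 were near background. The glial markers' summed level was 27.9 to 28.6 with largazole, 27.1 to 27.7 with SAHA, 28.0 to 28.4 with FK228 and 29.1 to 29.5 with vehicle, so it was lower with each compound. MBP was called lower with each compound and had the largest fall, with log2 differences of -0.88, -0.99 and -1.24 in that order. With SAHA 2 glial markers were called lower. The median difference of the 6 was -0.079, -0.29 and -0.066, so with largazole and FK228 the lower sum lay mainly in MBP. In limma 0 glial markers were higher with any compound, at an unadjusted p under 0.05 as well. Of 7 leukocyte markers 5, PTPRC among them, were near background in all groups, and CD14 was called higher with FK228. Their summed level was 27.4 to 28.2 with largazole, 27.2 to 28.2 with SAHA, 28.1 to 28.3 with FK228 and 27.2 to 27.8 with vehicle. Of 10 fibroblast and endothelial markers COL1A2, COL3A1, LUM, CDH5 and KDR were near background in all groups, COL1A1 was called higher with each compound, and PDGFRB was called lower with SAHA. Their summed level was 43.50 to 43.52 with largazole, 42.0 to 43.3 with SAHA, 42.9 to 43.5 with FK228 and 42.3 to 43.1 with vehicle. The part of these marker changes in the results below was not tested. In bulk RNA, more cells expressing a gene and more RNA per cell cannot be told apart.

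With FK228, 16 of the 35 genes were called higher than vehicle and 1, SYT1, lower, where called means a limma adjusted p under 0.05 (Benjamini-Hochberg over all 54613 probe sets). Over all 19775 genes FK228 gave 15.8% higher and 16.8% lower. With largazole 12 were called higher and 0 lower, against 12.7% higher and 13.3% lower over all genes. With SAHA 10 were called higher and 0 lower, against 13.1% higher and 15% lower over all genes. At an unadjusted p under 0.05, 1 gene was lower with largazole (STMN3), 2 were with SAHA (STMN3 and NEFL) and 3 were with FK228 (SYT1, STMN3 and REST). The genes' median log2 difference was 0.30 with largazole, 0.28 with SAHA and 0.32 with FK228, and that of all genes was 0.0045, -0.011 and 0.023 in the same order. The calls were almost all in 1 direction among the 35 genes and split nearly evenly over all genes. The 35 genes were chosen with earlier results of these data known, so this contrast is not an independent test.

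Expressed genes were called more often in general. Among the 12881 genes with a mean level at or above the near-background mark, largazole gave 18.4% higher and 19.2% lower, SAHA 19.1% higher and 21.5% lower, and FK228 22.4% higher and 24.1% lower. That mean includes the treated arrays, so SYT11 and NCAM1, with vehicle means of 3.22 and 3.75, reached the mark only through them. The 26 of the 35 genes that reached that mark included all 12 called higher with largazole, all 10 with SAHA and 13 of those with FK228, together with SYT1. Of the other 9, 3 were called higher with FK228 (STMN2, NEFM and CHGB) and 0 with largazole or SAHA in limma, where 3 and 1 were higher at an unadjusted p under 0.05. The 8 genes called higher with every compound were SYT11, STX1A, MAP2, MAPT, KIF5C, VGF, L1CAM and NCAM1. In all, 18 were called with at least 1 compound and 17 with none. The shares of all genes called with every compound, or with at least 1, were not computed. These counts therefore do not show whether the 35 genes differ from all genes. The 3 comparisons with vehicle share the vehicle arrays, so a shared call is not 3 independent observations.

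**Figure D3:**
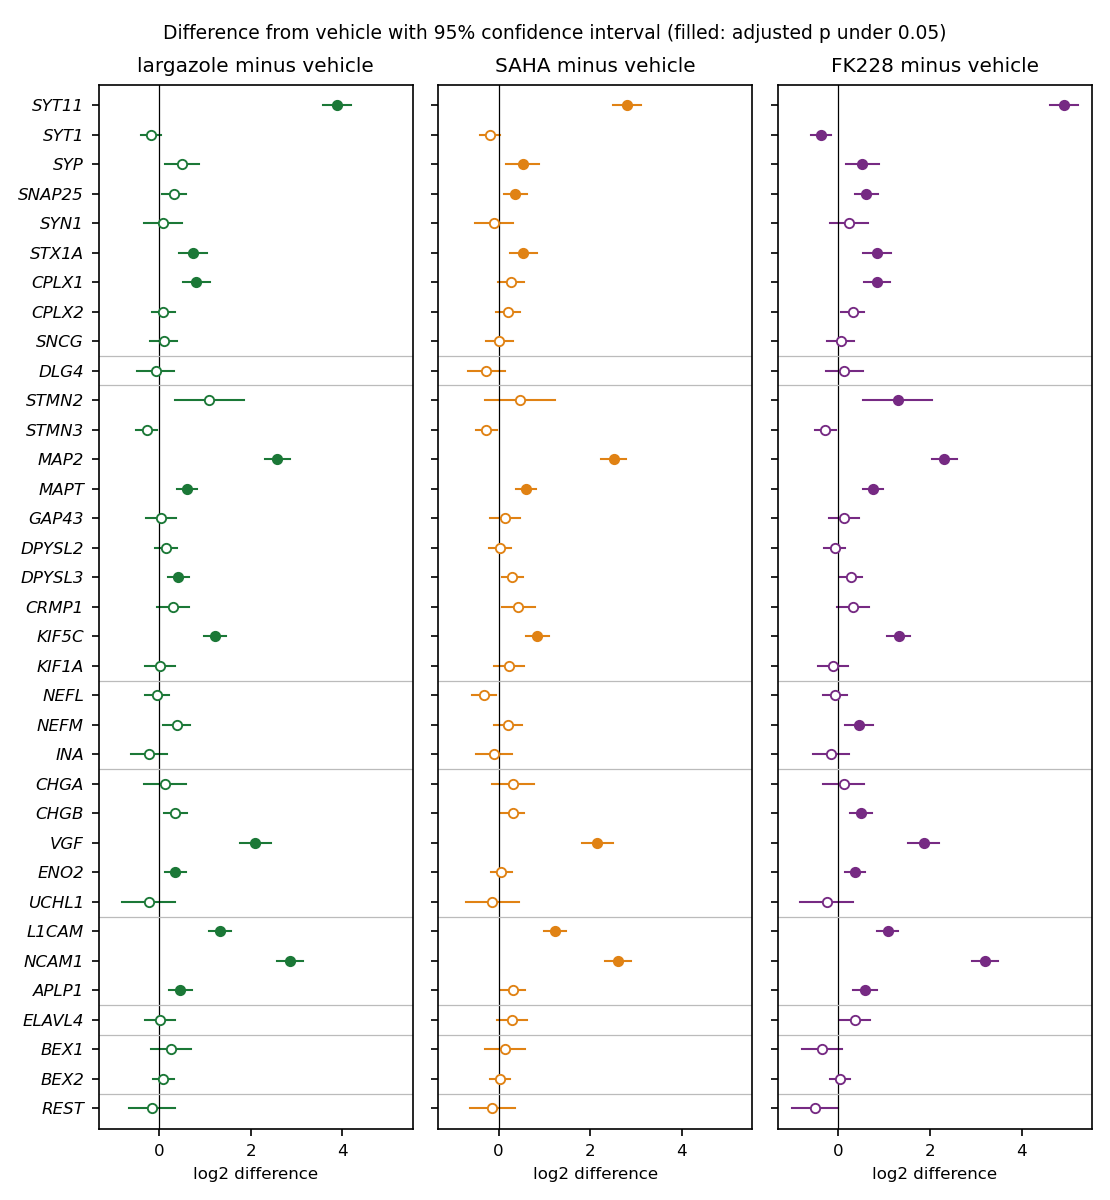
Log2 difference from vehicle of the 35 genes with each compound, as the limma estimate and its 95% confidence interval over 2 arrays per group; filled symbols passed an adjusted p under 0.05. Filled symbols lie right of 0 with the exception of SYT1 with FK228, and the largest estimates are those of SYT11, NCAM1, MAP2 and VGF.

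Of the 9 genes of the synaptic vesicle and its release, 3 were called higher with largazole, 4 with SAHA and 5 with FK228. Over all genes 12.7%, 13.1% and 15.8% were called higher in that order. Among genes with a mean at or above the near-background mark, as all 9 had, the shares were 18.4%, 19.1% and 22.4%. SYT11, an atypical synaptotagmin that takes part in vesicle trafficking, had log2 levels of 6.99 and 7.24 with largazole, 5.93 and 6.12 with SAHA, and 8.10 and 8.19 with FK228, against 3.35 and 3.10 with vehicle. Both vehicle arrays were near background and every treated array was far above them, with no overlap between any of the 4 groups. The log2 difference from vehicle was 3.89 ± 0.14 (SE, n = 2) with largazole, 2.80 ± 0.14 with SAHA and 4.92 ± 0.14 with FK228, which are 14.8-fold, 6.96-fold and 30.3-fold (limma, adjusted p = 1.51e-06, 4.74e-06 and 2.64e-07). Since vehicle was near background, these folds are fitted values and not bounds. A second SYT11 probe set differed by 2.56, 1.68 and 4.03 in the same order and was called with every compound. The remaining one was near background with SAHA, FK228 and vehicle and just above the mark with largazole (mean 4.57). It differed by 0.50, -0.01 and 0.15 and was called with largazole only. Averaged over its 3 probe sets, SYT11 differed by 2.32 with largazole, 1.49 with SAHA and 3.03 with FK228, and kept its calls.

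SYT1, the calcium sensor of fast transmitter release, was well above background in every group. Its brightest probe set had 9.10 and 9.13 with largazole, 9.06 and 9.14 with SAHA, and 8.91 and 8.93 with FK228, against 9.31 and 9.29 with vehicle. Every treated array lay below both vehicle arrays, and FK228's lay lowest. The differences of -0.18 with largazole and -0.20 with SAHA were not called, and that with FK228, -0.38 ± 0.096 (SE, n = 2; limma, adjusted p = 0.0175), was. That call was lost without FK228 replicate 1 or 2 or vehicle replicate 1 or 2, with adjusted p of 0.0578 to 0.0837, and with only the 4 FK228 and vehicle arrays (0.0502). The other SYT1 probe set, also well above background, had 7.98 and 7.92 with largazole, 8.43 and 7.83 with SAHA, and 7.64 and 7.45 with FK228, against 8.02 and 8.04 with vehicle. It differed by -0.075, 0.10 and -0.48 in that order and was not called (limma, adjusted p = 0.0821 with FK228), and its SAHA arrays overlapped vehicle.

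SNAP25 and STX1A encode the SNARE proteins of the presynaptic plasma membrane that pull vesicle and membrane together. STX1A (syntaxin 1A) had 7.52 and 7.30 with largazole, 7.05 and 7.38 with SAHA, and 7.51 and 7.54 with FK228, against 6.67 and 6.68 with vehicle. All 6 treated arrays lay above both vehicle arrays. It rose by 0.74 ± 0.13 with largazole, 0.54 ± 0.13 with SAHA and 0.85 ± 0.13 with FK228 (SE, n = 2; limma, adjusted p = 0.00429, 0.0187 and 0.00137). STX1A had only 1 probe set, whose name ends in _s_at. The SAHA call was lost without SAHA replicate 2 (0.37, adjusted p = 0.12) and without vehicle replicate 1 or 2 (0.0824 and 0.0822).

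The brightest SNAP25 probe set had 5.27 and 5.45 with largazole, 5.44 and 5.36 with SAHA, and 5.60 and 5.69 with FK228, against 4.96 and 5.11 with vehicle. Its difference was 0.32 with largazole (adjusted p = 0.0806), 0.37 with SAHA (0.0471) and 0.61 ± 0.11 with FK228 (0.0033). Treated arrays all lay above vehicle arrays. Another SNAP25 probe set had 4.81 and 4.78 with largazole, 4.97 and 5.14 with SAHA, and 5.46 and 5.41 with FK228, against 3.13 and 3.29 with vehicle. There the difference was 1.58, 1.85 and 2.23 in the same order, called with every compound (limma, adjusted p = 2.67e-05, 1.2e-05 and 2.3e-06). The chosen probe set thus showed a far smaller change than its neighbour, and the mean of the gene's 3 probe sets rose by 0.68, 0.71 and 1.03. The SAHA call of the chosen probe set was lost when any 1 of the 8 arrays was left out (adjusted p 0.0563 to 0.229), with an intensity trend and robust prior (0.0766), and with only the 4 SAHA and vehicle arrays (0.0754). Without probe sets whose names end in _x_at or _s_at, the remaining, dim SNAP25 probe set gave -0.087 with SAHA and an uncalled 0.26 with FK228 (0.402).

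CPLX1 (complexin 1), a small protein that clamps and promotes SNARE fusion, had 6.77 and 6.71 with largazole, 6.03 and 6.37 with SAHA, and 6.75 and 6.80 with FK228, against 5.89 and 5.96 with vehicle. Both depsipeptides' arrays lay above SAHA's, and SAHA's above vehicle's. CPLX1 rose by 0.81 ± 0.13 with largazole and 0.85 ± 0.13 with FK228 (SE, n = 2; limma, adjusted p = 0.00188 and 0.00102). With SAHA it differed by 0.28 and was not called, and without SAHA replicate 1 it differed by 0.45 and was (adjusted p = 0.0449). The related CPLX2 was not called with any compound, and with ribosomal protein medians set equal it differed by 0.37 with FK228 and was (adjusted p = 0.0358).

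SYP (synaptophysin), an abundant vesicle membrane protein, had 6.06 and 6.19 with largazole, 5.96 and 6.33 with SAHA, and 6.14 and 6.16 with FK228, against 5.81 and 5.44 with vehicle. The treated arrays all lay above the vehicle arrays, which themselves lay far apart. The difference was 0.50 with largazole (adjusted p = 0.0601), 0.52 with SAHA (0.0459) and 0.53 with FK228 (0.0398). The largazole difference was called with low probe sets filtered out (limma, adjusted p = 0.0366) and with an intensity trend and robust prior (0.0266). It was also called when the probe sets of each gene were averaged (0.0381). With the replicate number as a block, the SAHA and FK228 calls were lost (limma, adjusted p = 0.0699 and 0.062). The SAHA call was also lost without SAHA replicate 2 or vehicle replicate 2 (0.34 each), without either array of largazole (adjusted p = 0.0664) or of FK228 (0.057), and with only the 4 SAHA and vehicle arrays (0.0779). The FK228 call was lost without vehicle replicate 2 (0.34), either FK228 array (0.104 and 0.121) or either largazole array (0.0576). Without vehicle replicate 1 the largazole difference was 0.69 and was called (adjusted p = 0.0367), as it was without either SAHA array (0.0435).

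SYN1 (synapsin 1), which tethers vesicles to actin, was not called in its brightest probe set. That probe set had 5.16 and 5.28 with largazole, 5.07 and 5.01 with SAHA, and 5.70 and 5.07 with FK228, against 5.24 and 5.05 with vehicle, so that each treated group overlapped vehicle and FK228 replicate 1 stood above the rest. Without FK228 replicate 2 its FK228 difference was 0.55 and was called (adjusted p = 0.0237). The other SYN1 probe set had 4.84 and 5.02 with largazole, 4.58 and 4.01 with SAHA, and 4.94 and 4.82 with FK228, against 4.26 and 3.97 with vehicle. It rose by 0.82 with largazole and 0.77 with FK228 (limma, adjusted p = 0.0137 and 0.0145) and differed by an uncalled 0.18 with SAHA. The mean of the SYN1 probe sets rose by 0.50 with FK228 and was called (limma, adjusted p = 0.0359). SNCG (gamma-synuclein), a relative of the vesicle-binding alpha-synuclein, was not called, with differences from 0.018 to 0.099. DLG4 (PSD-95), the main scaffold of the postsynaptic density, was likewise not called, with 5.11 and 5.15 with largazole, 4.80 and 5.09 with SAHA, and 5.48 and 5.20 with FK228, against 4.95 and 5.46 with vehicle. The mean of its probe sets was called lower with SAHA (-0.41, adjusted p = 0.0334).

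**Figure D4:**
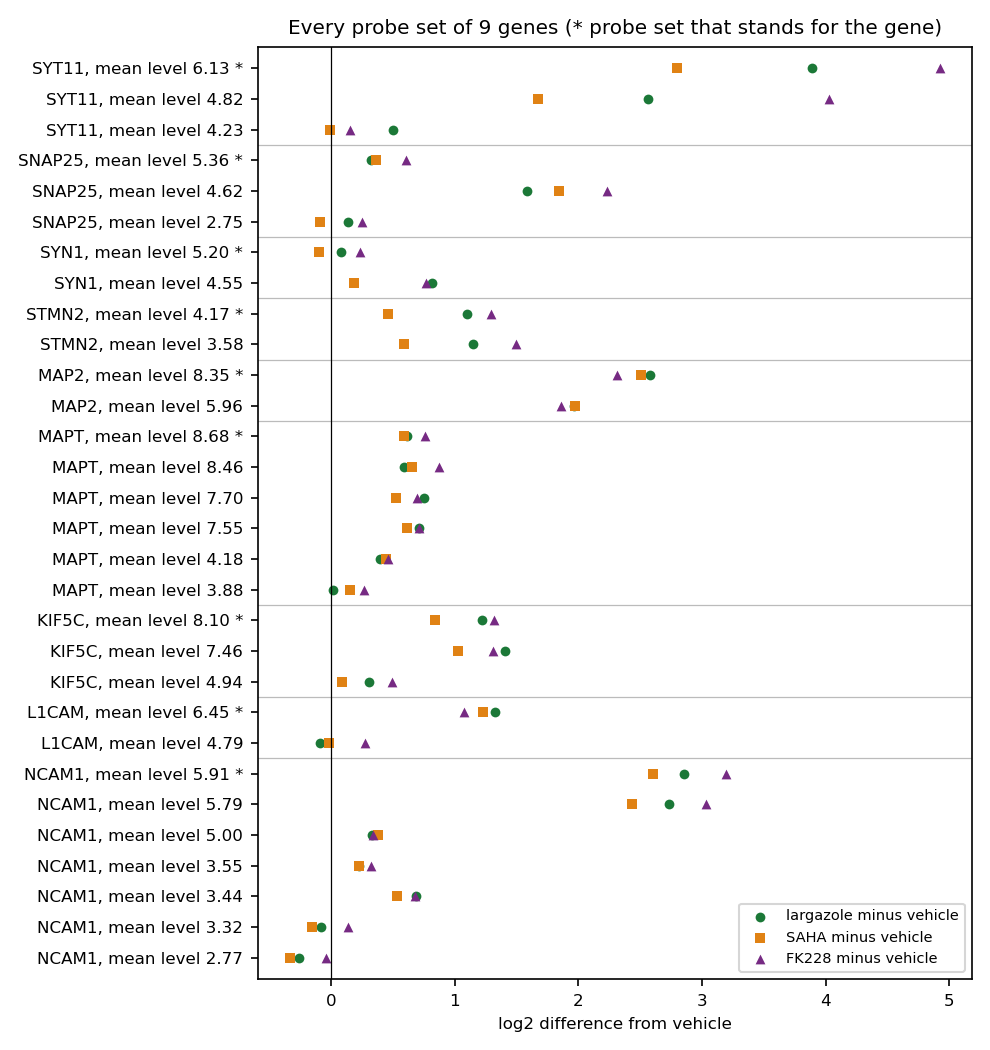
Log2 difference from vehicle of every probe set of 9 genes, with a row per probe set in order of mean level (given at the left), and a symbol per compound; an asterisk marks the probe set that stands for the gene. Probe sets of MAPT lie close together except for 2 dim ones, whereas those of SYT11, SNAP25, L1CAM and NCAM1 spread from near 0 to their largest values.

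Of the 10 genes of microtubules, growth cones and axonal transport, 4 were called higher with largazole, 3 with SAHA and 4 with FK228. Over all genes 12.7%, 13.1% and 15.8% were called higher in that order, and 10 genes are few to set against these shares. MAP2, the dendritic microtubule-associated protein, had 9.16 and 8.99 with largazole, 9.04 and 8.97 with SAHA, and 8.89 and 8.73 with FK228, against 6.59 and 6.40 with vehicle. The treated groups lay close to one another and all were far above vehicle. MAP2 rose by 2.58 ± 0.12 with largazole, 2.51 ± 0.12 with SAHA and 2.31 ± 0.12 with FK228 (SE, n = 2), which are 5.98-fold, 5.69-fold and 4.97-fold (limma, adjusted p = 3.97e-06, 4.29e-06 and 2.79e-06). The second MAP2 probe set rose by 1.97, 1.97 and 1.86. MAPT (tau), its axonal counterpart, had 8.78 and 8.81 with largazole, 8.83 and 8.73 with SAHA, and 8.95 and 8.94 with FK228, against 8.16 and 8.21 with vehicle. It was well above background in every group, and no treated array overlapped vehicle. It rose by 0.62 ± 0.097, 0.59 ± 0.097 and 0.76 ± 0.097 in that order (limma, adjusted p = 0.00209, 0.00224 and 0.0004), and 4 of its 6 probe sets were called higher with every compound.

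KIF5C, a neuronal kinesin heavy chain that carries cargo along axons, had 8.48 and 8.47 with largazole, 8.10 and 8.09 with SAHA, and 8.68 and 8.47 with FK228, against 7.20 and 7.30 with vehicle. The 2 arrays of each group lay close together, and the SAHA arrays lay between those of vehicle and of the depsipeptides. It rose by 1.22 ± 0.11 with largazole, 0.84 ± 0.11 with SAHA and 1.32 ± 0.11 with FK228 (SE, n = 2; limma, adjusted p = 9.17e-05, 0.000603 and 3.18e-05). A second probe set rose by 1.41, 1.02 and 1.31. Another, of low level and the one left when probe sets ending in _x_at or _s_at are dropped, differed by 0.30 and 0.09 with largazole and SAHA (not called) and by 0.49 with FK228 (called). KIF1A, the motor of synaptic vesicle precursors, was not called with any compound.

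STMN2, a stathmin that destabilises microtubules in growth cones, had 4.24 and 4.85 with largazole, 3.68 and 4.15 with SAHA, and 5.12 and 4.38 with FK228, against 3.04 and 3.87 with vehicle. Vehicle and SAHA were near background. The FK228 and largazole arrays lay above both vehicle arrays, while SAHA's overlapped them, and the spread within each group was wide. The difference was 1.10 ± 0.33 with largazole (adjusted p = 0.0505), 0.46 ± 0.33 with SAHA (0.422) and 1.30 ± 0.33 with FK228 (0.0192). The largazole difference was called with low probe sets filtered out, an intensity trend and robust prior, equal ribosomal protein medians, or the mean of its probe sets. It was also called without probe sets ending in _x_at or _s_at and with only the 4 arrays compared (limma, adjusted p 0.0044 to 0.0496 over these alternatives). The FK228 call was lost without FK228 replicate 1 (0.93, adjusted p = 0.111) or vehicle replicate 1 (0.88, 0.139). The largazole difference was called without vehicle replicate 2 (1.51, 0.0278) and without either FK228 array (0.0332). The second probe set, dim in each group, rose by 1.15 with largazole and 1.50 with FK228 (adjusted p = 0.0031 and 0.000453) and differed by an uncalled 0.59 with SAHA. STMN3, another stathmin, differed by -0.27, -0.27 and -0.28 and was not called. Its treated arrays, 9.89 and 10.03 with largazole, 9.96 and 9.96 with SAHA, and 9.92 and 9.98 with FK228, all lay below the vehicle arrays at 10.20 and 10.26. With low probe sets filtered out, or with an intensity trend and robust prior, STMN3 was called lower with every compound (adjusted p 0.00589 to 0.0369).

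The collapsin response mediators relay semaphorin signals to the growth cone's cytoskeleton. Of the 3 measured here, DPYSL3 was called higher with largazole, at 7.17 and 7.25 against 6.82 and 6.75 with vehicle (0.42 ± 0.10, limma, adjusted p = 0.0198). With SAHA it had 7.02 and 7.15 and with FK228 7.03 and 7.10, differences of 0.30 and 0.28 that were not called, although all 6 treated arrays lay above both vehicle arrays. The largazole call was lost without any 1 of the largazole and vehicle arrays (adjusted p 0.0642 to 0.133). The mean of its 3 probe sets differed by 0.18 with largazole (not called). The 1 probe set not ending in _x_at or _s_at, near background on all 8 arrays, differed by -0.030. After a further quantile normalization the SAHA and FK228 differences were both 0.33 and were called (adjusted p = 0.0471 and 0.0432). DPYSL2 and CRMP1 were not called, and CRMP1 differed by 0.64 with SAHA and was called without SAHA replicate 1 (adjusted p = 0.0302). Their paralog DPYSL4 showed a larger response than any of the 3, at 7.86 and 7.95 with largazole, 7.55 and 7.52 with SAHA, and 8.60 and 8.71 with FK228, against 5.73 and 5.53 with vehicle. It rose by 2.27 ± 0.11, 1.91 ± 0.11 and 3.02 ± 0.11 in that order (SE, n = 2; limma, adjusted p = 5.38e-06, 1.11e-05 and 6.31e-07). GAP43, a growth cone membrane phosphoprotein, stayed near background on all 8 arrays.

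The 3 intermediate filament genes gave little signal. NEFL and NEFM, the light and medium neurofilament subunits, were near background on every array. NEFM had 3.81 and 3.51 with largazole, 3.47 and 3.49 with SAHA, and 3.80 and 3.66 with FK228, against 3.37 and 3.18 with vehicle. It was called higher with FK228 (0.45 ± 0.13, limma, adjusted p = 0.0328) although both groups were below the near-background mark. That call was lost without any 1 of the FK228 and vehicle arrays (adjusted p 0.0513 to 0.185), after a further quantile normalization (0.05) and in the mean of its probe sets (0.14, adjusted p = 0.345). With the replicate block NEFM was also called with largazole (adjusted p = 0.0428). NEFL was not called, with -0.31 with SAHA, which without vehicle replicate 1 was -0.45 and called (adjusted p = 0.0491). INA (alpha-internexin) was not called.

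Of the 5 granule proteins and neuronal enzymes, 2 were called higher with largazole, 1 with SAHA and 3 with FK228. Over all genes 12.7%, 13.1% and 15.8% were called higher in that order, and 5 genes are too few to set against these shares. VGF, a secreted neuropeptide precursor induced by neurotrophins and cAMP, had 8.19 and 8.56 with largazole, 8.52 and 8.34 with SAHA, and 8.26 and 8.05 with FK228, against 6.20 and 6.36 with vehicle. The largazole arrays overlapped those of SAHA and of FK228, SAHA's lay above FK228's, and all 6 were clear of vehicle. VGF rose by 2.10 ± 0.15 with largazole, 2.15 ± 0.15 with SAHA and 1.87 ± 0.15 with FK228 (SE, n = 2), which are 4.28-fold, 4.44-fold and 3.66-fold (limma, adjusted p = 2.99e-05, 2.35e-05 and 2.69e-05). VGF had only 1 probe set, whose name ends in _x_at, so the alternative without such probe sets did not cover it.

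The granins CHGA and CHGB, which fill dense-core granules, were near background on every array. CHGB had 3.80 and 4.02 with largazole, 3.85 and 3.87 with SAHA, and 4.01 and 4.10 with FK228, against 3.59 and 3.53 with vehicle, so that its treated arrays all lay above vehicle's within the range of background. It was called with FK228 (0.50 ± 0.11, limma, adjusted p = 0.00887), a call lost without FK228 replicate 2 (0.0519) or vehicle replicate 2 (0.0569). With the replicate block it was also called with largazole (0.35, adjusted p = 0.0495). ENO2 (gamma enolase), the neuronal form of a glycolytic enzyme, had 8.49 and 8.59 with largazole, 8.20 and 8.29 with SAHA, and 8.53 and 8.58 with FK228, against 8.17 and 8.20 with vehicle. The depsipeptide arrays lay above vehicle's and SAHA's lay close to vehicle's. It was called higher with largazole (0.35 ± 0.10, limma, adjusted p = 0.0358) and FK228 (0.37 ± 0.10, 0.0243), and differed by 0.06 with SAHA. The largazole call was lost without any 1 of the largazole and vehicle arrays (0.0936 to 0.21), without probe sets ending in _x_at or _s_at (0.052) and with only its 4 arrays (0.0535). The FK228 call was lost without any 1 of the FK228 and vehicle arrays (0.0617 to 0.106) and with only its 4 arrays (0.0572). UCHL1, a neuronal ubiquitin hydrolase, was near background and not called.

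All 3 neural surface proteins were called higher with largazole and FK228, and 2 of them with SAHA. The all-gene shares called higher were 12.7% with largazole, 15.8% with FK228 and 13.1% with SAHA. A set of 3 genes is too small to set against them. NCAM1, the neural cell adhesion molecule, had 6.65 and 6.54 with largazole, 6.29 and 6.41 with SAHA, and 6.79 and 7.10 with FK228, against 3.73 and 3.76 with vehicle. As with SYT11, vehicle cells were near background and every treated array was clear of it. NCAM1 rose by 2.85 ± 0.13 with largazole, 2.60 ± 0.13 with SAHA and 3.20 ± 0.13 with FK228 (SE, n = 2), which are 7.22-fold, 6.08-fold and 9.17-fold on fitted values (limma, adjusted p = 2.82e-06, 4.6e-06 and 9.06e-07). A second of its 7 probe sets rose by 2.73, 2.44 and 3.03 and another by 0.69, 0.54 and 0.68, all called. The other 4 were not called with any compound, so the mean of the 7 rose by 0.93, 0.81 and 1.10.

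L1CAM, an axonal adhesion molecule of the immunoglobulin superfamily, had 6.95 and 6.79 with largazole, 6.78 and 6.77 with SAHA, and 6.56 and 6.69 with FK228, against 5.55 and 5.54 with vehicle. The treated arrays were all above the vehicle arrays. It rose by 1.32 ± 0.11 with largazole, 1.23 ± 0.11 with SAHA and 1.08 ± 0.11 with FK228 (SE, n = 2; limma, adjusted p = 5.03e-05, 6.56e-05 and 8.42e-05). Its other probe set differed by -0.09, -0.01 and 0.28 and was not called, so the mean of the 2 rose by 0.62, 0.61 and 0.68. APLP1, a neuronal relative of the amyloid precursor protein, had 7.14 and 7.02 with largazole, 6.95 and 6.90 with SAHA, and 7.12 and 7.27 with FK228, against 6.52 and 6.71 with vehicle. The groups did not overlap with vehicle. It rose by 0.47 ± 0.11 with largazole and 0.58 ± 0.11 with FK228 (SE, n = 2; limma, adjusted p = 0.019 and 0.00464) and differed by an uncalled 0.31 with SAHA. The largazole call was lost without largazole replicate 1 or 2 or vehicle replicate 1 (adjusted p 0.0552 to 0.133).

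ELAVL4 (HuD), an RNA-binding protein of neurons, was near background on every array and was not called. The adaptor BEX2 had between 9.79 and 9.96 on all 8 arrays and was not called, and BEX1 was close to background and was not called. Their paralogs differed from them: BEX4 rose by 1.24 ± 0.11 with largazole, 0.47 ± 0.11 with SAHA and 1.36 ± 0.11 with FK228, and BEX5 by 1.64 ± 0.16, 1.14 ± 0.16 and 1.31 ± 0.16 (SE, n = 2; all called in limma). BEX4's means were nonetheless near background in every group, at 4.04 with largazole, 3.27 with SAHA and 4.15 with FK228, against 2.79 with vehicle. BEX5's mean was near background with vehicle alone, at 5.44 with largazole, 4.94 with SAHA and 5.11 with FK228, against 3.80 with vehicle. BEX3, by contrast, fell by 0.33, 0.49 and 0.46 on the log2 scale, called with each compound.

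REST itself was well above background. It had 8.19 and 7.85 with largazole, 8.36 and 7.71 with SAHA, and 7.79 and 7.53 with FK228, against 8.33 and 8.01 with vehicle. In every group the array numbered 1 was the higher, largazole and SAHA overlapped vehicle, and both FK228 arrays lay below both vehicle arrays. The difference was -0.15 with largazole, -0.13 with SAHA and -0.51 ± 0.22 with FK228 (SE, n = 2; limma, adjusted p = 0.136), none called. With the replicate number as a block the FK228 difference was called (adjusted p = 0.0175). The other 2 REST probe sets differed by -0.01 to 0.14 and were not called.

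Of 19 measured genes of REST's corepressor complexes and its regulators, 1 was called higher and 6 lower with largazole, 0 higher and 7 lower with SAHA, and 2 higher and 8 lower with FK228 in limma. At an unadjusted p under 0.05, 2 were higher with SAHA. All 19 had a mean at or above the near-background mark, and of all genes at that level 18.4% were higher and 19.2% lower with largazole, 19.1% and 21.5% with SAHA, and 22.4% and 24.1% with FK228. The median log2 difference was -0.12, -0.16 and -0.25 in that order. CTDSP1, a phosphatase that acts with REST, fell by 1.13 ± 0.12 with largazole, 1.30 ± 0.12 with SAHA and 1.52 ± 0.12 with FK228 on the log2 scale (SE, n = 2; limma, adjusted p = 0.00019, 7.96e-05 and 2.06e-05). The related phosphatase CTDSPL fell by 0.93, 1.00 and 1.40, and PHF21A, a histone reader of the LSD1 complex, by 0.95, 0.93 and 1.27. USP7, a deubiquitinase that stabilises REST, fell by 0.75, 0.77 and 1.04. HMG20B, another subunit of the LSD1 complex, was called higher with largazole (0.49) and FK228 (0.51).

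Among 61 measured paralogs of the 35 genes, 16 were called higher and 4 lower with largazole, 16 and 2 with SAHA, and 18 and 6 with FK228, and the median difference was 0.12, 0.11 and 0.17. Over all genes 12.7% were higher and 13.3% lower with largazole, 13.1% and 15% with SAHA, and 15.8% and 16.8% with FK228. DPYSL4 had the largest rise with each compound. SYT17, a synaptotagmin relative, had the largest fall, at 5.91 and 6.06 with largazole, 5.61 and 5.79 with SAHA, and 5.76 and 5.73 with FK228, against 7.31 and 7.52 with vehicle. It fell by 1.43 ± 0.12, 1.71 ± 0.12 and 1.66 ± 0.12 in that order (SE, n = 2; limma, adjusted p = 6.62e-05, 2.45e-05 and 1.52e-05), so within the family SYT11 rose and SYT17 fell with every compound. MAP1A, a microtubule-associated protein, rose by 1.13, 0.94 and 1.17.

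A list of 62 further neuronal and synaptic genes, of which 54 were measured, gave 14 called higher with largazole, 11 with SAHA and 15 with FK228, and 0 called lower with any of them in limma. At an unadjusted p under 0.05, 0, 2 and 1 were lower in that order. The median difference was 0.09, 0.06 and 0.17, and the all-gene shares just given apply here too. DNER, a Notch ligand of neurons, had 7.75 and 7.84 with largazole, 7.75 and 7.72 with SAHA, and 7.63 and 7.61 with FK228, against 5.13 and 4.76 with vehicle. It rose by 2.85 ± 0.13, 2.78 ± 0.13 and 2.67 ± 0.13 (SE, n = 2). CNTN1, an axonal adhesion molecule, rose by 2.37, 2.41 and 2.30, and the potassium channel KCNC1 by 1.98, 1.74 and 2.62. Most of the list, 40, 43 and 39 of the 54 genes in that order of compounds, was not called. The potassium channel was near background with vehicle. Of 12 measured neuronal transcription and splicing factors, 5 of which had a mean at or above the near-background mark, 10, 9 and 10 were not called, and the median difference was -0.064, -0.0012 and -0.034. With each compound 2 were called higher, against 12.7%, 13.1% and 15.8% of all genes, which for 12 genes is no clear difference. With SAHA 1 was called lower, against 15% of all genes. SOX2, a neural progenitor factor, rose by 2.14, 1.70 and 1.94 and ISL1, a motor neuron factor, by 0.92, 1.04 and 0.74, while SOX11 fell by 0.39 with SAHA. SOX2 was near background with vehicle and SOX11 in every group.

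Largazole and FK228 were given at the same 20 nM, so they form the 1 pair that could be compared at a matched dose and time. SAHA's dose was 2 µM, and its values stand beside the others with no test between compounds. In the 35 genes FK228 minus largazole gave 1 call higher and 0 lower, against 1.22% higher and 1.62% lower over all genes. At an unadjusted p under 0.05, L1CAM and BEX1 were lower with FK228. The call was SYT11, higher with FK228 by 1.03 ± 0.14 (SE, n = 2; 95% confidence interval 0.72 to 1.34; limma, adjusted p = 0.0108). That call was lost without FK228 replicate 2 (0.98, adjusted p = 0.0616), without largazole replicate 1 (0.90, 0.123) or without largazole replicate 2 (1.16, 0.0525), and the direction held in each.

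The second SYT11 probe set was also called higher with FK228 (1.47, limma, adjusted p = 0.00335). The third, near background with FK228 and just above the mark with largazole, differed by an uncalled -0.35. For the other 34 genes the test did not pass in the chosen probe set, which does not show that the depsipeptides act alike. The intervals give the sizes that remain possible: -0.54 to 0.0044 for MAP2, -0.57 to 0.11 for VGF, 0.06 to 0.63 for NCAM1, -0.15 to 0.35 for KIF5C and -0.25 to 0.32 for CPLX1. Before adjustment the interval also left out 0 in NCAM1, SNAP25 and ELAVL4, which were higher with FK228. A second SNAP25 probe set was called higher with FK228 (0.64, limma, adjusted p = 0.0263). BEX1 had 3.87 and 4.14 with FK228 against 4.64 and 4.61 with largazole, a difference of -0.62 ± 0.19 around the near-background mark (adjusted p = 0.151). The widest interval, -0.56 to 0.96, was that of STMN2. Among the paralogs and other neuronal genes, DPYSL4 was higher with FK228 by 0.75 (limma, adjusted p = 0.0172), KCNC1 by 0.65 (0.0265) and SNAP29 by 0.49 (0.0419), and CALB2 and SYN2 were lower by the differences -0.62 and -0.59 (0.0406 and 0.0444).

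**Figure D5:**
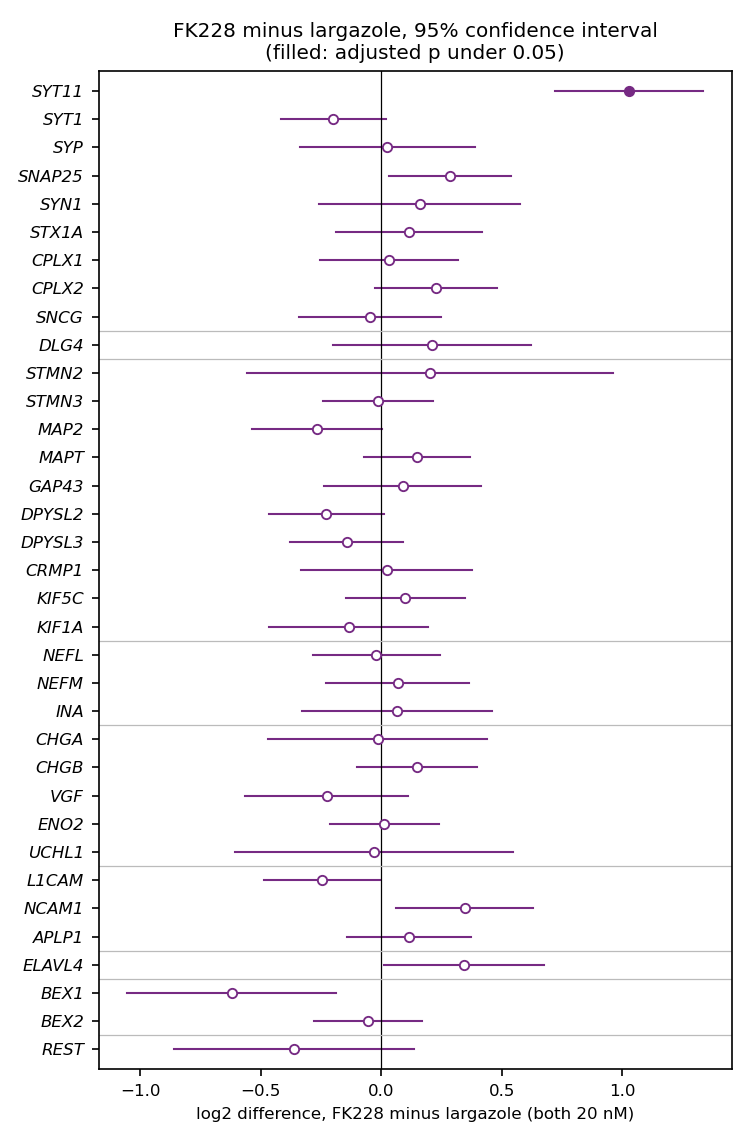
Log2 difference of FK228 minus largazole, both at 20 nM, for the 35 genes, as the limma estimate with its 95% confidence interval over 2 arrays per group; the filled symbol passed an adjusted p under 0.05. SYT11 alone is filled, at 1.03, and most other intervals span 0.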

How the data were processed

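The authors deposited log2 levels of 54613 probe sets on 8 arrays. Affy, RMA and limma appear in the submitters' processing notes, without version, role or order; how the values were made is otherwise not given in the sources used here. A single limma model (limma 3.58.1, R 4.3.3) covered all arrays, with 1 coefficient per group, no filter and empirical Bayes moderation (4 residual and 4.88 prior degrees of freedom). P-values were adjusted by Benjamini-Hochberg over all probe sets of each comparison. No exact permutation test was used, since its smallest two-sided p with 2 arrays per group is 0.333. Precision is limited by the number of arrays: the 95% interval of a log2 difference had a median half-width of 0.28 over genes.

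The genes and lists were chosen with earlier results of these data known. All 35 genes could be named; of each further list up to 4 highest and 4 lowest called genes per comparison, and of marker lists the highest and lowest by level. Marker genes and paralogs named beyond this were chosen after their values were seen. Replicates with the same number deviated together in all 6 pairs of groups (r = 0.115 to 0.21 over 19775 genes), so a fit with the number as a block was made, and its value stands beside each call it changed. Promoters came from RefSeq (GRCh38.p14). Figures used Python 3.11.15 with matplotlib 3.10.9.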

Additional observations from a re-analysis of the deposited data

How the results depend on the processing

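Alternatives were a filter on low probe sets, an intensity trend with a robust prior, the replicate block, a further quantile normalization, equal medians of ribosomal protein genes, leaving out probe sets ending in _x_at or _s_at, the mean of a gene's probe sets, only the 4 arrays compared, and each array left out. Without leaving out an array, 1027 of 1076 values of the 35 genes stayed on their side of the threshold, 15 lost and 32 gained a call, and 2 reversed: DPYSL3 with largazole (-0.030) and SNAP25 with SAHA (-0.087), both without probe sets ending in _x_at or _s_at, where the values come from another probe set. In both genes that probe set was near background on every array. With 1 array left out, 52 of 1120 lost a call, 10 gained one and 0 called values reversed. Over both kinds of alternative, 80 further values, uncalled in both fits, had the opposite sign. The replicate block gained NEFM and CHGB with largazole and REST with FK228, lost SYP with SAHA and FK228, and changed no other call of the 35 genes. Genes called higher ranged with 1 array left out from 9 to 13 with largazole, 7 to 11 with SAHA, 12 to 16 with FK228 and 0 to 1 for FK228 minus largazole, and SAHA gave 6 without probe sets ending in _x_at or _s_at. Genes called lower became 1 with largazole and 1 with SAHA under the filter and under the intensity trend, 1 with SAHA in the mean of probe sets, 2 with FK228 under the filter, the trend and the block, and 0 with FK228 in only its 4 arrays; with 1 array left out they were 0 to 1 for SAHA and 0 to 1 for FK228. Over all genes, calls with 1 array left out numbered 3430 to 5137 with largazole, 3927 to 5529 with SAHA, 4926 to 6343 with FK228 and 24 to 363 for FK228 minus largazole. The last were 562 in the main analysis, 1214 with the filter, 1748 with the trend, 371 without _x_at or _s_at probe sets and 110 with only the 4 arrays. Which genes those were, and the cause, was not tested. The filter left 28 of the 35 genes, and 31 had a probe set not ending in _x_at or _s_at. The ribosomal medians lay lower in treated than in vehicle arrays by the differences -0.048 to -0.0011, which setting them equal took out. With 2 arrays per group, differences under the median half-width of 0.28 were mostly not detectable, and larger ones could be missed too. That half-width comes from intervals without adjustment for the number of probe sets. For example, SYP with largazole (0.50) and REST with FK228 (-0.51) were not called.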
